A study of Mus musculus with 6 samples.

Results

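The genes described here are the Zfp zinc-finger genes that RAW264.7 cells expressed. RAW264.7 is a mouse macrophage line. Members were chosen by symbol (Zfp followed only by digits, without Zfp36) and by measured level: a mean of at least 5 CPM over the 6 libraries (CPM, the count scaled to the library total). Of 370 such Zfp genes in a table of 49492 rows, 195 met that level and all 195 were tested. The level was used to choose them, so levels are given as a description. Ep300 encodes a lysine acetyltransferase that acts as a transcriptional coactivator, and the series asked how its silencing alters macrophage gene expression. The 3 Ep300 siRNA libraries came from cells transfected with 50 nM of an siRNA against Ep300 (genotype labelled Ep300 silenced), and the 3 control siRNA libraries from cells given the same amount of a control siRNA (genotype labelled WT). Both groups shared the transfection reagent and were collected at 48 h, and no label ties a library to a culture of its own. The p-values therefore rest on the spread between these libraries, which may be technical. In bulk RNA, fewer cells of a kind and less RNA per cell cannot be told apart.

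Most Zfp proteins carry C2H2 zinc fingers, in which a pair of cysteines and a pair of histidines hold a zinc ion and the residues between them read DNA bases. Many of them also carry a KRAB domain, which recruits Trim28 and through it histone methylation and deacetylation, and these proteins silence transposable elements and other loci. KRAB zinc-finger genes lie in tandem clusters that arose by gene duplication. Other Zfp proteins have no KRAB domain and include transcriptional activators, RNA-binding proteins and ubiquitin ligases.

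Total counts ran from 29993567 to 37132333 in the Ep300 siRNA libraries and from 35930658 to 45377510 in the control siRNA libraries, and the lowest count of any member in any library was 114. From here on, values per library are CPM on TMM-scaled library sizes. Ep300 itself was at 51.1, 59.0 and 54.9 CPM after Ep300 siRNA and at 106.7, 115.2 and 118.3 CPM after control siRNA, so the silenced gene was lower in each library that carries its siRNA. All 7 macrophage markers examined were present, at means of 71.1 CPM (Adgre1) to 7856 CPM (Lyz2), and their summed level was 10770 to 11690 CPM after Ep300 siRNA and 9527 to 11160 CPM after control siRNA, most of it Lyz2. None of the 7 passed edgeR's adjusted p and 2 had an unadjusted p under 0.05. These were Csf1r, at 638.1, 628.2 and 709.8 CPM after Ep300 siRNA and 746.6, 791.6 and 787.9 CPM after control siRNA, and Adgre1, at 65.3 ± 3.04 CPM after Ep300 siRNA and 76.8 ± 7.08 CPM after control siRNA (SD, n = 3). Both were lower in every Ep300 siRNA library than in any control siRNA library, and Csf1r passed by DESeq2 and by limma-voom. Cd68 ran the other way, at an unadjusted edgeR p of 0.0833. It was at 859.2, 789.7 and 773.9 CPM after Ep300 siRNA and 772.4, 744.1 and 691.6 CPM after control siRNA, without overlap. Of the 7 markers, 5 had positive log2 fold changes and 2 negative. Among genes at a mean of at least 5 CPM, 9.53% passed edgeR's adjusted p and 28.0% had an unadjusted p under 0.05. The part of these marker differences in the results on Zfp genes was not tested. Of 10 markers of other cell types, Cd3g and Epcam had no count in any library, and the list summed to 0.989 to 1.07 CPM after Ep300 siRNA and 0.919 to 1.42 CPM after control siRNA. Ep300 siRNA replicate 1 stood apart in Gm42418, which lies over ribosomal RNA sequence. It held 5819 CPM there, against 1362 and 2172 CPM in the other Ep300 siRNA libraries and 1326 to 1528 CPM in the control siRNA libraries. Results that rest on that library are also given without it.

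The label was checked against protein sequence. A C2H2 finger was found by its spacing of cysteines and histidines in the longest GENCODE coding sequence of 191 of the 195 genes, and 801 of 21992 protein-coding genes in that annotation hold at least 1. The number ran up to 36 in Zfp142, with a median of 11. No finger of that spacing was found in Zfp330, Zfp503, Zfp839 and Zfp935. The first matched finger of 4 members is shown to make the shared unit visible, and 3 of them are genes that changed. The other, Zfp655, has the highest CPM, not scaled by length, among genes with a KRAB stretch by the stricter pattern described below. By the looser pattern Zfp445 has the highest, at 109.8 CPM against 43.3 CPM for Zfp655. The fingers shown are coding bases of GENCODE M21 transcripts (GRCm38), 5′ to 3′, and capitals mark the 2 cysteine and 2 histidine codons. They lie at bases 303 to 368 of the transcript of Zfp462 (chromosome 4), 690 to 752 of Zfp275 (chromosome X), 759 to 821 of Zfp740 (chromosome 15) and 868 to 930 of Zfp655 (chromosome 5).
Zfp462: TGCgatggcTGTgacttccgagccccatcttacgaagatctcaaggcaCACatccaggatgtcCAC
Zfp275: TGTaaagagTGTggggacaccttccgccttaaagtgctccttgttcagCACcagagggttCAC
Zfp740: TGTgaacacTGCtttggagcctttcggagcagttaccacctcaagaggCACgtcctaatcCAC
Zfp655: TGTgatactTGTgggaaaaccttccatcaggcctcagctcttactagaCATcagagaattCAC

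Few Zfp genes changed after Ep300 silencing. By edgeR's quasi-likelihood test, adjusted by Benjamini-Hochberg over 15741 genes, 5 of 195 (2.56%) passed an adjusted p of 0.05, with 2 higher (Zfp839 and Zfp740) and 3 lower (Zfp608, Zfp462 and Zfp275). Over all genes tested 6.78% passed, with 2.76% higher and 4.02% lower, and among the 10341 genes at a mean of at least 5 CPM 9.53% passed, with 4.08% higher and 5.45% lower. The same 5 genes passed by DESeq2 and by limma-voom. None of the 195 estimates reached 1.5-fold in either direction, whereas 150 of the 10341 genes at that level did (1.45%), and 6.15% of all genes tested. The share of Zfp genes that passed is thus below the share over all genes; whether the family differs from other genes was not tested.

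**Figure D1:**
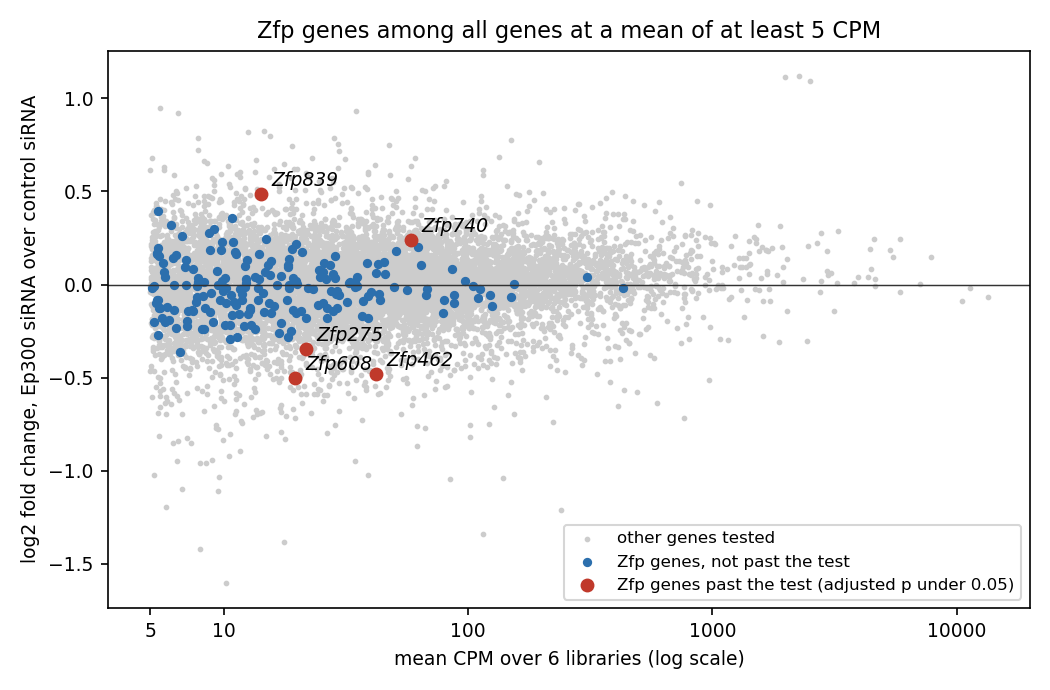
Log2 fold change, Ep300 siRNA over control siRNA (y axis), against mean CPM over 6 libraries (x axis, log scale) for genes at a mean of at least 5 CPM. Zfp genes are blue, the 5 that passed the test are red and the other genes are grey; all 195 Zfp genes lie between −0.50 and 0.49.

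Zfp608, a paralog of Zfp609 on chromosome 18 (54888048 to 54992555, minus strand, GRCm38), had the largest fall. It was at 14.97, 16.60 and 16.62 CPM after Ep300 siRNA and at 21.15, 24.55 and 22.77 CPM after control siRNA. Every Ep300 siRNA library lay below every control siRNA library. The level of Zfp608 after Ep300 siRNA was 0.705 of that after control siRNA (log2 fold change −0.50 ± 0.08, SE, 95% interval −0.69 to −0.32, edgeR adjusted p = 0.00502). Zfp609, which in mouse neural progenitors partners the cohesin loader and the Integrator complex, was at 70.1, 69.7 and 59.9 CPM after Ep300 siRNA and 52.4, 62.6 and 70.7 CPM after control siRNA. The groups overlapped for Zfp609, whose log2 fold change was 0.11 ± 0.10 (SE; edgeR adjusted p = 0.596). The difference between these paralogs was not tested. The lncRNA Gm26742 overlaps Zfp608 on the other strand and held 0.70 ± 0.14 CPM after Ep300 siRNA and 1.08 ± 0.25 CPM after control siRNA (SD, n = 3). How featureCounts treated strand is not stated, so reads of overlapping genes cannot be told apart.

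Zfp462, on chromosome 4 (54945048 to 55083563, plus strand), encodes a large nuclear protein that in mouse embryonic stem cells recruits histone H3 lysine methyltransferases. The search found 33 fingers in it. It was at 33.4, 35.1 and 36.8 CPM after Ep300 siRNA and at 44.8, 51.5 and 50.9 CPM after control siRNA. The groups did not overlap. Its ratio of levels was 0.716 (log2 fold change −0.48 ± 0.07, SE, edgeR adjusted p = 0.0030), with the smallest p of the family.

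Zfp275, an X-linked gene with 11 matched fingers (73342621 to 73359080, plus strand), was at 19.98, 19.17 and 18.02 CPM after Ep300 siRNA and at 22.21, 26.33 and 24.14 CPM after control siRNA. The groups were apart. Its ratio of levels was 0.787 (log2 fold change −0.35 ± 0.08, SE, edgeR adjusted p = 0.0297). Leaving out replicate 2 or 3 of either group ended this call, with an edgeR adjusted p of at most 0.131.

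Zfp839, on chromosome 12 (110850253 to 110869996, plus strand), had the largest rise. It was at 17.01, 16.11 and 16.59 CPM after Ep300 siRNA and at 11.09, 12.73 and 11.67 CPM after control siRNA. The groups did not overlap for Zfp839. It rose 1.40-fold (log2 fold change 0.49 ± 0.09, SE, 95% interval 0.30 to 0.67, edgeR adjusted p = 0.00627). Zfp839 is 1 of the 4 genes in which no C2H2 spacing was found. Mpc1-ps, a processed pseudogene on the other strand within it, held 1.59 ± 0.45 CPM after Ep300 siRNA and 1.06 ± 0.27 CPM after control siRNA (SD, n = 3).

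Zfp740, on chromosome 15 (102203249 to 102215606, plus strand) and with 2 matched fingers, was at 63.48, 62.03 and 63.73 CPM after Ep300 siRNA and at 53.93, 54.22 and 52.25 CPM after control siRNA. The groups did not overlap. It rose 1.18-fold (log2 fold change 0.24 ± 0.06, SE, edgeR adjusted p = 0.0257), a call lost with any 1 library left out except control siRNA replicate 1 (edgeR adjusted p up to 0.0917). Csad overlaps it on the other strand, at 2.49 ± 0.64 CPM after Ep300 siRNA and 1.58 ± 0.19 CPM after control siRNA (SD, n = 3). Zfp608, Zfp462 and Zfp839 still passed whichever of the 6 libraries was left out, the one with high Gm42418 included. The 5 genes lie on chromosomes 18, 4, X, 12 and 15.

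**Figure D2:**
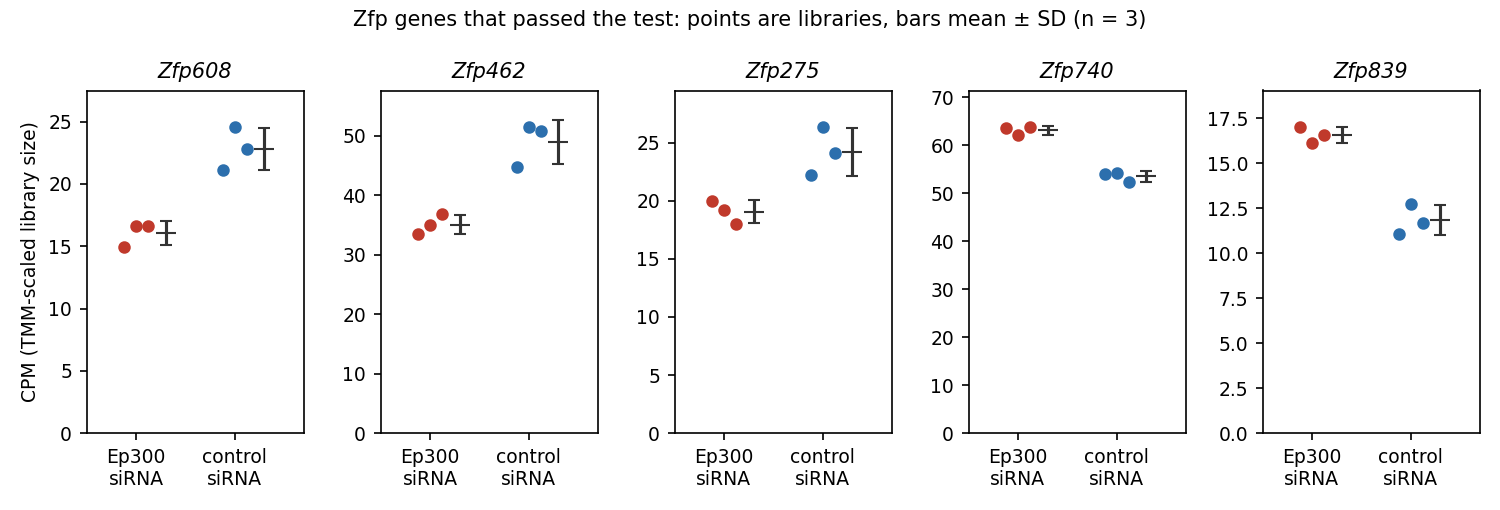
CPM on TMM-scaled library sizes (y axis, from 0) of the 5 Zfp genes that passed the test, with Ep300 siRNA libraries in red, control siRNA libraries in blue and bars for the mean ± SD (n = 3). Zfp608, Zfp462 and Zfp275 were lower and Zfp740 and Zfp839 higher after Ep300 siRNA, with no overlap between groups.

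Promoter sequences of 3 genes that changed are printed to show what lies at their starts. They are RefSeq windows (GRCm38.p6) from 250 bases before to 50 after an annotated start, 5′ to 3′ on the gene's strand, with capitals marking GGGCGG or CCAAT on either strand. Zfp839 lies at chr12:110850029-110850328 (plus strand), Zfp740 at chr15:102203750-102204049 (plus strand, the first of 2 starts) and Zfp275 at chrX:73342370-73342669 (plus strand). Zfp462 has no entry in that table, and no window is printed for Zfp608.
Zfp839: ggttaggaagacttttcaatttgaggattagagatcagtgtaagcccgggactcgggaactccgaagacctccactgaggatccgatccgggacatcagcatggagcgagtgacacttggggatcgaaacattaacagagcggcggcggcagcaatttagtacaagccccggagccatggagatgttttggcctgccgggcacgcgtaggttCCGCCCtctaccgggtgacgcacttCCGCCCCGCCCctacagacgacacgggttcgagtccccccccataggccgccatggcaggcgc
Zfp740: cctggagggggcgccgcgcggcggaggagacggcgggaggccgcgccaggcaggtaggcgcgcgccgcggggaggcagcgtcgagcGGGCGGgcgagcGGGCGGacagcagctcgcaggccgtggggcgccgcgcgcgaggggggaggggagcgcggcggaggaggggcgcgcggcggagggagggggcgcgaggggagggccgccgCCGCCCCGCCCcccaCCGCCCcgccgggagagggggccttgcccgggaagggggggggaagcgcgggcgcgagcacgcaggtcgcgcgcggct
Zfp275: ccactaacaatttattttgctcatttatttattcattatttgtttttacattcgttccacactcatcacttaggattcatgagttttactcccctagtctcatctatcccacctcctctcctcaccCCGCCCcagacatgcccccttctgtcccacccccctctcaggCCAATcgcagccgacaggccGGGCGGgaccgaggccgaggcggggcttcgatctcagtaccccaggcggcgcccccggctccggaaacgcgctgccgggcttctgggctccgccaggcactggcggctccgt

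These windows of Zfp839, Zfp740 and Zfp275 hold 3, 5 and 2 copies of GGGCGG, and that of Zfp275 holds 1 CCAAT. The window at the other start of Zfp740 (chr15:102204321-102204620) holds 0 copies of GGGCGG, with a GC content of 48.7%, against 85.3% in the window printed. No TATAAA was found in the 3 windows printed. Nor was the ETS motif CCGGAAG, the CREB motif TGACGTCA, the YY1 motif AAGATGG or the NRF1 core motif found in them. The shorter CREB motif TGACG was found in the window of Zfp839 and not in those printed for Zfp740 and Zfp275. Both strands were searched. The table held 209 promoters of 166 of the 195 genes. GGGCGG was in 47.8% of Zfp promoters and 35.7% of all 32851 promoters. CCAAT was in 46.4% of Zfp promoters and 37.4% of all promoters, and CCGGAAG in 23.0% of Zfp promoters and 8.86% of all promoters. TATAAA was the one motif with a lower share, at 6.70% of Zfp promoters and 13.6% of all promoters. The shorter CREB motif TGACG was in 34.0% of Zfp promoters and 20.8% of all promoters. TGACGTCA was in 2.87% of Zfp promoters and 1.79% of all promoters, AAGATGG in 7.66% of Zfp promoters and 6.34% of all promoters, and the NRF1 core motif in 3.83% of Zfp promoters and 0.971% of all promoters. Zfp promoters had a median GC content of 55.7% and a ratio of observed to expected CpG of 0.705, against 52.7% and 0.384 over all promoters. The part of base composition in these shares was not tested.

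Over the whole family, changes were small and spread to both sides. Log2 fold changes ran from −0.50 to 0.49, and the middle 80% lay between −0.21 and 0.17. The median was −0.02 (−0.004 over all genes tested and 0.005 over genes at a mean of at least 5 CPM). Among all genes at that level the middle 80% lay between −0.24 and 0.22. The median absolute log2 fold change was 0.105 for Zfp genes and 0.110 for all genes at that level, so sizes were alike. Negative values were found for 116 genes and positive values for 79 (40.5%, against 49.2% over all genes tested and 51.3% of genes at a mean of at least 5 CPM). At an unadjusted edgeR p under 0.05, 12 were higher and 16 lower, 14.4% of 195, against 22.2% of all genes tested (10.3% higher, 11.9% lower) and 28.0% of genes at a mean of at least 5 CPM (13.9% higher, 14.1% lower). The 2 groups of libraries did not overlap for 42 genes (21.5%), 17 higher and 25 lower, against 27.5% of all genes tested (13.0% higher, 14.4% lower) and 33.3% at that level (16.9% higher, 16.4% lower). The 95% interval lay within 1.5-fold either way for 186 genes (95.4%), against 92.4% of genes at that level and 67.2% of all genes tested. The median standard error was 0.094 for Zfp genes and 0.079 for all genes at a mean of at least 5 CPM.

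**Figure D3:**
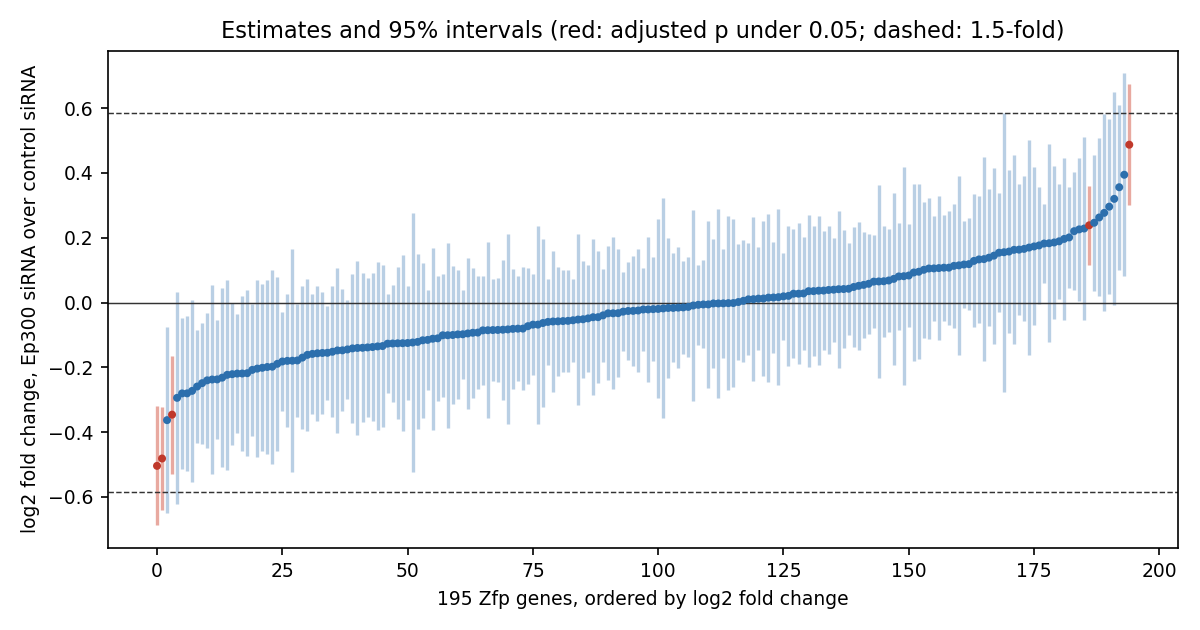
Log2 fold change, Ep300 siRNA over control siRNA (y axis), with 95% intervals for the 195 Zfp genes in rank order (x axis). Red marks the 5 that passed, and dashed lines mark 1.5-fold; 186 intervals stay inside the lines.

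The genes next to the threshold were named after their values were seen. Among those that did not pass, Zfp664, Zfp60 and Zfp946 had the smallest edgeR adjusted p, at 0.0783, 0.0796 and 0.0938. Their log2 fold changes were 0.18 ± 0.06, −0.26 ± 0.08 and 0.36 ± 0.12 (SE). Zfp664 was at 53.7, 54.5 and 53.0 CPM after Ep300 siRNA and 46.6, 47.6 and 47.9 CPM after control siRNA, so its libraries did not overlap. Zfp946 overlapped through Ep300 siRNA replicate 1 (10.6, 13.3 and 12.6 CPM after Ep300 siRNA; 10.7, 9.28 and 8.56 CPM after control siRNA), and it passed without that library.

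None of the 6 Zfp genes with the highest CPM, not scaled by length, passed the test. Zfp106, an RNA-binding protein needed for motor neuron maintenance in mice, led with 429.3, 441.2 and 415.5 CPM after Ep300 siRNA and 394.1, 437.7 and 472.5 CPM after control siRNA. Zfp91, a ubiquitin ligase of the noncanonical NF-kB pathway, was at 329.0, 317.9 and 284.4 CPM after Ep300 siRNA and 267.9, 315.7 and 321.2 CPM after control siRNA. The groups overlapped for both. Zfp638, an RNA-binding cofactor of mouse adipocyte differentiation, was at 154.7 ± 18.1 CPM after Ep300 siRNA and 154.6 ± 7.68 CPM after control siRNA (SD, n = 3). Zfp318, needed for IgD on mouse B cells, was at 120.2 ± 9.82 CPM after Ep300 siRNA and 130.2 ± 6.12 CPM after control siRNA. The spindle assembly protein Zfp207 was at 119.8 ± 10.5 CPM after Ep300 siRNA and 124.7 ± 4.87 CPM after control siRNA. Zfp710 was at 146.2 ± 2.94 CPM after Ep300 siRNA and 153.3 ± 13.9 CPM after control siRNA. The 95% intervals of these 6 genes ran from −0.27 at the lowest (Zfp318) to 0.22 at the highest (Zfp91) on the log2 scale.

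Levels of different genes were compared per kilobase of annotated exon. On the scale of CPM per kilobase, Zfp106 (41.4), Zfp830 (35.3), Zfp91 (30.4) and Zfp710 (21.6) were highest, and the family's median was 2.96, against 7.88 for all genes tested at a mean of at least 5 CPM. By CPM, 61 members lay between 5 and 10, 66 between 10 and 20, and 9 at 100 or more. No gene of the lowest of these classes passed (6 at an unadjusted edgeR p under 0.05, 0 by DESeq2 and 0 by limma-voom). Nor did any of the highest (0 unadjusted, 0 by either other tool). The shares over genes at a mean of at least 5 CPM were 9.53% after adjustment and 28.0% before it. The median standard error was 0.124 in the class from 5 to 10 CPM and 0.072 at 100 CPM or more. Just inside the level that defined the family were Zfp944 (5.08 CPM), Zfp788 (5.18) and Zfp54 (5.20), and just outside it Zfp109 (4.98), Zfp248 (4.97) and Zfp658 (4.93). Zfp658 held 3.75, 3.72 and 4.56 CPM after Ep300 siRNA and 5.74, 5.18 and 6.56 CPM after control siRNA. Its fitted log2 fold change was −0.54 ± 0.14 (SE, edgeR adjusted p = 0.0452; not passed by limma-voom, or without any 1 library other than Ep300 siRNA replicate 3), and it was the 1 gene that passed among the 113 Zfp genes tested under that level (0.885%).

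Of 41 Zfp genes listed for a known role, 35 are among the 195. In edgeR 0 passed after adjustment and 1 before it, at 0.05, and DESeq2 and limma-voom each gave 0. Over all genes tested 6.78% passed after adjustment and 22.2% before it. Among genes at a mean of at least 5 CPM, as these are, the shares were 9.53% and 28.0%. Zfp462, which fell and whose role is given above, is not on that list, so the count of 0 holds for the list as written. The list's median log2 fold change was 0.00 and its values ran from −0.20 (Zfp503) to 0.22 (Zfp568). Among promoter-binding factors, Zfp143 was at 34.1 ± 1.30 CPM after Ep300 siRNA and 34.5 ± 1.55 CPM after control siRNA, and Zfp148 at 66.2 ± 0.95 CPM after Ep300 siRNA and 68.8 ± 3.08 CPM after control siRNA (SD, n = 3). Zfp281, a regulator of pluripotency in mouse embryonic stem cells, was at 26.6, 28.3 and 28.2 CPM after Ep300 siRNA and 29.1, 32.2 and 29.5 CPM after control siRNA. Its groups were apart by a small margin, and it did not pass (log2 fold change −0.13 ± 0.07, SE, edgeR adjusted p = 0.318).

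Among genes that act on RNA and ribosomes, Zfp622, whose human counterpart matures the large ribosomal subunit, was at 67.4 ± 2.71 CPM after Ep300 siRNA and 68.4 ± 1.16 CPM after control siRNA (SD, n = 3). Zfp598, a ubiquitin ligase that marks collided ribosomes, was at 28.2 ± 1.90 CPM after Ep300 siRNA and 29.2 ± 2.56 CPM after control siRNA. Zfp326, part of a complex that links transcription to splicing, was at 85.9 ± 6.38 CPM after Ep300 siRNA and 89.3 ± 5.60 CPM after control siRNA. Zfp346, a double-stranded RNA binder, was at 28.9 ± 2.74 CPM after Ep300 siRNA and 28.2 ± 2.94 CPM after control siRNA. The groups of each of these 4 genes overlapped.

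KRAB genes were searched for by the conserved letters of the KRAB A box in any GENCODE coding sequence. A stretch was found in 58 members, and in 81 with a looser pattern; both can miss diverged boxes. Of the 58, edgeR gave 0 after adjustment and 7 before it (2 higher, 5 lower), and DESeq2 and limma-voom each gave 0. With the looser pattern edgeR gave 0 of 81 after adjustment and 11 before it. The shares over genes at a mean of at least 5 CPM were 9.53% after adjustment and 28.0% before it. Zfp60 passed on library sizes alone and Zfp871 without control siRNA replicate 1. All 5 genes that passed are among the 137 with no such stretch. The median log2 fold change was −0.02 in both sets, and the difference in calls between them was not tested. KRAB-stretch genes had a lower median level (10.9 CPM, against 17.2 CPM without the stretch), a median of 12.5 matched fingers against 9, and a coding GC content of 43.0% against 50.3%, and their median standard error was 0.107 against 0.090.

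Members were also grouped by the number of matched fingers. The background over genes at a mean of at least 5 CPM was 9.53% after adjustment and 28.0% before it. Of 27 genes with 1 to 4 fingers, Zfp740 rose and Zfp608, in which 1 was matched, fell, and none of 58 with 5 to 9 fingers passed (7 at an unadjusted edgeR p under 0.05; 0 by DESeq2 and 0 by limma-voom). Of 64 with 10 to 14 fingers Zfp275 fell, with a median log2 fold change of 0.00 over these genes. Of 42 with 15 or more fingers Zfp462 fell, and log2 fold changes were negative for 29 and positive for 13, with a median of −0.08. With 1 to 4 fingers, 18 were negative and 9 positive, with a median of −0.02. The split was 33 negative and 25 positive with 5 to 9 fingers, and 33 and 31 with 10 to 14. Over all 195 genes it was 116 negative and 79 positive. The difference between these classes was not tested.

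Among KRAB genes with a known role, Zfp809, which silences retroviruses in mouse embryonic stem cells, was at 40.5, 48.7 and 43.9 CPM after Ep300 siRNA and 38.1, 41.7 and 43.9 CPM after control siRNA. Zfp568, which represses an Igf2 promoter in mouse embryos, was at 20.8, 23.0 and 20.2 CPM after Ep300 siRNA and 18.6, 17.0 and 19.3 CPM after control siRNA. The groups overlapped for Zfp809 and were apart for Zfp568. Zfp568 did not pass (log2 fold change 0.22 ± 0.08, SE, unadjusted p = 0.0213, edgeR adjusted p = 0.139).

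Zfp genes lay in 14 clusters of at least 3 members, with at most 200 kb between neighbours, which together held 65 of the 195. None of these 65 passed edgeR's adjusted p (9 at an unadjusted p under 0.05; 0 by DESeq2 and 0 by limma-voom), and at most 2 did under any alternative. Over all genes tested, 6.78% passed and 22.2% had an unadjusted p under 0.05. Among genes at a mean of at least 5 CPM these shares were 9.53% and 28.0%. The largest cluster, from Zfp84 to Zfp146 on chromosome 7, held 10 genes with a median log2 fold change of −0.01, from −0.20 (Zfp82) to 0.22 (Zfp568). In a cluster of 5 on chromosome 7 (27731389 to 28014115, GRCm38), which holds Zfp60, Zfp626, Zfp59, Zfp974 and Zfp850, all had negative log2 fold changes, from −0.26 to −0.09, with 1 at an unadjusted p under 0.05. All 3 genes of the cluster from Zfp868 to Zfp866 on chromosome 8 had positive values, from 0.01 to 0.23. On chromosome 13 a cluster of 7 held both Zfp759 (−0.36 ± 0.13, SE) and Zfp87 (0.32 ± 0.15), which ran in opposite directions (edgeR adjusted p = 0.126 and 0.239). Clustered genes share sequence, and the handling of reads that map to several of them is not stated, so their separate values are uncertain.

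**Figure D4:**
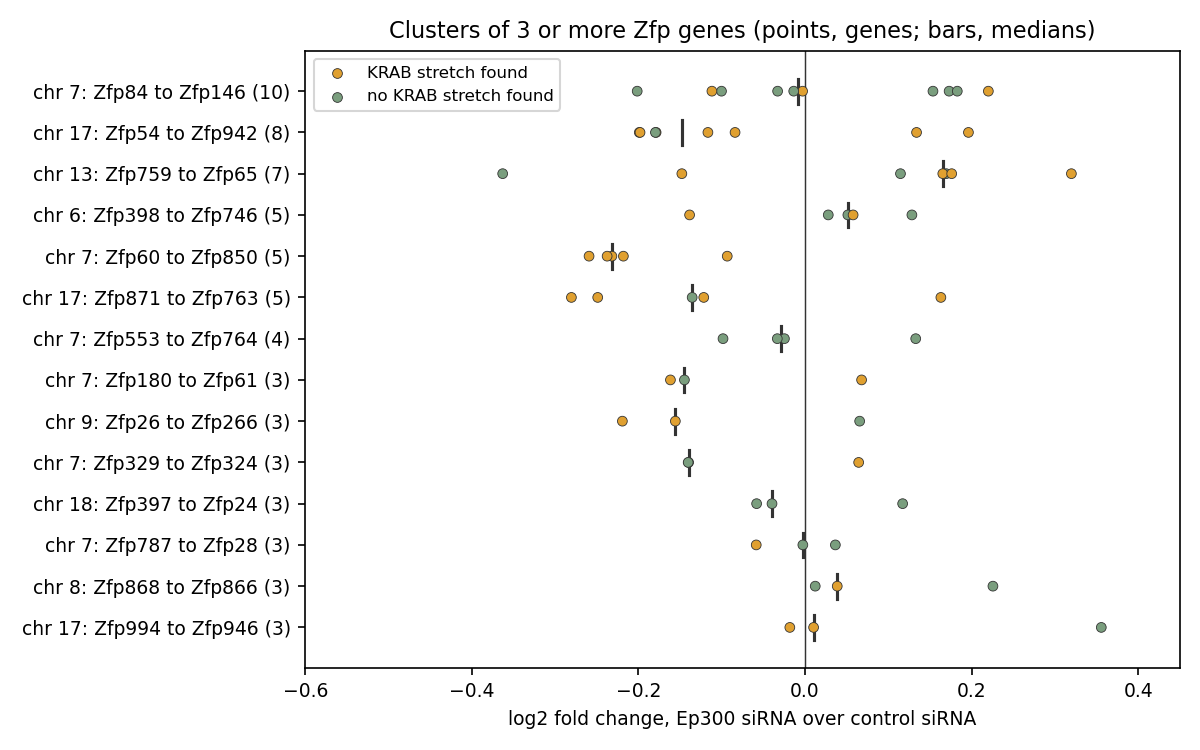
Log2 fold change, Ep300 siRNA over control siRNA (x axis), of the genes in each of the 14 clusters of at least 3 Zfp genes (y axis, with the number of genes), orange where a KRAB stretch was found and green where not. Bars are medians; most clusters hold values on both sides of 0, and the 5 genes from Zfp60 to Zfp850 are all below it and the 3 from Zfp868 to Zfp866 all above it.

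Library by library, the family took 0.516%, 0.551% and 0.526% of counts after Ep300 siRNA and 0.543%, 0.548% and 0.562% after control siRNA, in replicate order. The median deviation of its genes from their mean over 6 libraries, on log2(CPM + 0.5), was −0.04, 0.04 and −0.03 after Ep300 siRNA and 0.02, 0.02 and 0.01 after control siRNA. By this median, Ep300 siRNA replicate 2 was the highest of all 6 and the other Ep300 siRNA libraries the lowest. By share of counts, control siRNA replicate 3 was the highest. With 1 library left out in turn, the family's median log2 fold change ran from −0.053 to −0.004. The part of library quality in these medians was not tested. Within groups, the median coefficient of variation of a Zfp gene was 7.05% after Ep300 siRNA and 7.13% after control siRNA.

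**Figure D5:**
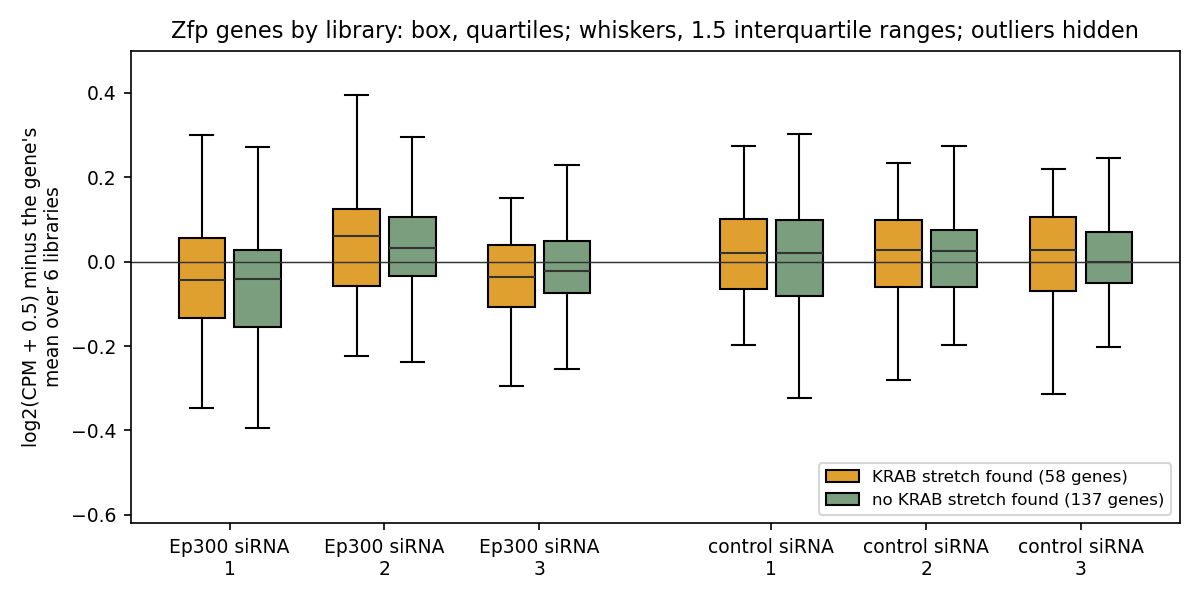
Deviation of log2(CPM + 0.5) from each gene's mean over 6 libraries (y axis) for Zfp genes in each library (x axis), split by whether a KRAB stretch was found. Boxes are quartiles and whiskers reach 1.5 interquartile ranges; the boxes of Ep300 siRNA replicate 2 sit above those of the other Ep300 siRNA libraries in both sets.

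Genes of the KRAB corepressor machinery were examined beside the family. Of 34 on the list, 3 rose and 2 fell, with a median log2 fold change of 0.03. The background was 6.78% of all genes tested and 9.53% of those at a mean of at least 5 CPM. Pphln1, a subunit of the HUSH silencing complex, rose 1.24-fold (57.3 ± 2.26 CPM after Ep300 siRNA and 46.2 ± 1.55 CPM after control siRNA, SD, n = 3). Chd4, the nucleosome remodeller of the NuRD complex, rose 1.20-fold (edgeR adjusted p = 0.0457) and the deacetylase Hdac1 1.17-fold (edgeR adjusted p = 0.0355). Dnmt3a, a de novo DNA methyltransferase, fell, with a ratio of 0.742 (248.5 ± 3.11 CPM after Ep300 siRNA and 335.2 ± 43.0 CPM after control siRNA). Cbx5, a heterochromatin protein, fell to 0.834 (edgeR adjusted p = 0.0473). Trim28, the KRAB corepressor itself, was at 73.2, 72.6 and 77.1 CPM after Ep300 siRNA and 79.3, 70.9 and 78.9 CPM after control siRNA, so its groups overlapped (log2 fold change −0.04 ± 0.06, SE, edgeR adjusted p = 0.770). Setdb1, its histone methyltransferase partner, was at 86.8, 85.9 and 83.0 CPM after Ep300 siRNA and 90.3, 93.5 and 103.6 CPM after control siRNA. Its groups did not overlap, but it did not pass (log2 fold change −0.17 ± 0.07, SE, edgeR unadjusted p = 0.0249, adjusted p = 0.1503). The count of 5 became 3 when Ep300 siRNA replicate 1 was left out and 2 when replicate 2 or 3 of that group was. Leaving out control siRNA replicate 2 gave 0 and replicate 3 gave 1, whereas library sizes alone gave 3 and DESeq2 gave 8.

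Zinc-finger factors named Zbtb, Zscan, Zkscan, Prdm, Klf or Sp gave 76 genes tested, of which 1 rose and 4 fell, with a median log2 fold change of 0.00. That count is near the background of 6.78% over all genes tested. Klf6 fell, with a ratio of 0.715 (70.3 ± 7.10 CPM after Ep300 siRNA and 98.3 ± 5.27 CPM after control siRNA, SD, n = 3) and Klf10 to 0.704. Zbtb38 fell to 0.757 (64.8 ± 1.28 CPM after Ep300 siRNA and 85.6 ± 3.16 CPM after control siRNA) and Zbtb18 to 0.811, while Zkscan1 rose 1.21-fold. Among these 5, Zbtb38 had the smallest edgeR adjusted p (0.00235) and Zkscan1 the largest (0.0270). With no filter on low counts 11 of the list passed.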

How the data were processed

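Stranded mRNA libraries from 2 µg of RNA were made from 3 Ep300 siRNA and 3 control siRNA samples of RAW264.7 cells. The authors deposited raw read counts per gene symbol, 1 column per library. The submitters' processing notes list GRCm38 and the tools fastp 0.23.4, STAR 2.5.3a, edgeR 3.12.1 and featureCounts; no source used here states the annotation or the strand and multimapping settings. Of counts from 1 to 4, 79.8% to 80.9% per library were even. Each fragment may therefore have been counted as 2 reads, and totals and counts given here would then be 2 times the fragments; whether this was so is not stated, and a fit on halved counts was run. PCR copies are not independent molecules, so errors from counts are lower limits.

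Counts were tested with edgeR 4.0.16 (R 4.3.3): filterByExpr, TMM scaling and the two-sided quasi-likelihood F-test without covariates, with Benjamini-Hochberg adjustment over 15741 genes (threshold 0.05; biological coefficient of variation 8.62%). A standard error is the fold change (log2) divided by the root of F. The fit was tested on simulated data with changes of known size. It called 26.5% of genes changed 1.25-fold in the right direction, and 70.8% of those changed 1.5-fold. For 2-fold and 4-fold changes the shares were 79.6% and 100%. The changed genes were drawn from all genes tested, so the shares for Zfp genes may differ. Alternatives were other scalings and filters, DESeq2 1.42.0, limma-voom 3.58.1, halved counts, a replicate block and each library left out.

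Members and lists were chosen with earlier results of these data known. Named genes are those that passed, the 6 highest, those next to the 5 CPM level, those with a known role and the leading genes of comparison lists. Coordinates, exon lengths and coding sequences are from GENCODE M21, in which all 195 symbols were found; coding sequences were translated with Biopython 1.88 for the finger and KRAB searches, since no protein table was used.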

Additional observations from a re-analysis of the deposited data

How the results depend on the processing

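The 5 calls among Zfp genes (2 higher, 3 lower) were the same 5 genes under RLE and upper-quartile scaling, a filter of 1 CPM in 3 libraries, halved counts, DESeq2, limma-voom and a replicate block. Whether the replicate numbers pair the libraries was not settled. Correlations of same-numbered deviations were 0.087, 0.020 and −0.047, and those of differently numbered libraries ran from −0.101 to 0.088. With the replicate block the counts among Zfp genes stayed at 5, 2 and 3. On library sizes alone 6 passed (Zfp60 added), and with no filter on low counts 6 (Zfp946 added). With 1 library left out, 3 to 7 passed, 1 to 3 higher and 2 to 4 lower. At an adjusted p under 0.01, 3 passed, of which 1 was higher, and under 0.1, 8 passed, of which 4 were higher. With members at a mean of at least 2 CPM 6 passed, and at 10 CPM 5 passed. The family's median log2 fold change, −0.021, was −0.055 on library sizes alone, where the median of all genes was −0.038, and ran from −0.053 to −0.004 with 1 library left out. The members named by the rule that did not pass had 585 values under the alternatives. Of these, 49 had the other sign, and none passed. Genes of the comparison lists are not among them. Nor are Zfp60, Zfp946 and Zfp871, each of which passed under an alternative. Over all genes tested, 1068 passed, against 1357 with the replicate block and 1721 with no filter on low counts. Precision limits what can be seen: intervals of 9 Zfp genes reach beyond 1.5-fold, and smaller differences of genes that did not pass are not excluded. The looser KRAB pattern was chosen after the data were seen.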
